A study of Mus musculus with 4 samples.

Results

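The respiratory chain genes measured here were those of complexes I, III and IV and of the ATP synthase, taken from both genomes of the cell, in CD4 T cells from tumor-bearing and normal mouse lung. A gene was a member when its symbol began with mt-Nd, mt-Co, mt-Atp or mt-Cytb, with Nduf followed by a, b, c, s or v, with Uqcr, with Cox4 to Cox8, or with Atp5, and when it had 10 or more UMIs over both libraries. A UMI is a molecular barcode, so that a UMI count is a count of distinct captured molecules. Of 31053 genes listed, 102 gene IDs matched and 95 had enough UMIs. The remaining 7 were Cox4i2 with 7 UMIs, Cox6a2 with 2, and Cox7b2, Cox8b, Cox8c, Ndufa4l2 and a second ID for Atp5o with 0 each. Mitochondrial DNA encoded 13 members, of which 7 belonged to complex I, 1 to complex III, 3 to complex IV and 2 to the ATP synthase. Nuclear DNA encoded 82 members: 36 of complex I, 8 of complex III, 14 of complex IV with Ndufa4, 15 of the ATP synthase and 9 assembly or coupling factors.

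Complexes I, III and IV pass electrons from NADH to oxygen and pump protons across the inner mitochondrial membrane, and the ATP synthase uses the returning protons to make ATP. The proteins of the hydrophobic cores are encoded in mitochondrial DNA, which is transcribed inside the organelle as long precursor RNAs that are then cut into single messages. All other subunits are transcribed in the nucleus, translated in the cytosol and imported, so that each complex is built from the products of 2 genomes. Regulatory T cells, marked by the transcription factor Foxp3, are known for a strong use of oxidative phosphorylation.

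The tumor library held CD4 T cells from lungs of C57BL/6 mice 3 weeks after TC1 tumor cells had been injected into the tail vein, and the normal library held those of age-matched mice without tumor cells. TC1 is a transplanted tumor cell line, the labels do not give the number of mice in a suspension, and each condition was 1 library, so no test between them was possible. Every interval below is a 95% interval that covers counting error only, not the variation between animals or preparations. Intervals on UMI counts also leave out the variation between cells. Intervals are exact, except where the ratio of mitochondrial to nuclear members is compared between libraries or classes. Those are normal approximations on the log scale. After filters, 7135 tumor cells with 31921001 UMIs and 7082 normal cells with 28084248 UMIs were kept. They were split by whether a cell had a UMI of Foxp3 and of Ccr7, a chemokine receptor of naive and lymph node homing T cells. Foxp3+ cells numbered 1147 in the tumor and 206 in the normal library. Of these, 401 and 175 were Ccr7+, and 746 and 31 were Ccr7-, so that the Ccr7- part of the normal library was small. Foxp3- Ccr7+ cells numbered 4849 and 6194, and Foxp3- Ccr7- cells 1139 and 682. A cell without a UMI of a gene may still have carried its transcript. The median cell of these classes had 3528 to 5223 UMIs. The 10 CD4 T cell markers were detected in every class, with summed levels of 4393 to 5816 counts per 1000000 UMIs of the class (CPM). Regulatory T cell markers summed to 1310 CPM in tumor and 530 in normal Foxp3- Ccr7- cells, and to 544 and 364 in Foxp3- Ccr7+ cells. In Foxp3- Ccr7- cells 8 of 9 measured were higher by 1.5-fold in the tumor library, where 10.2% of all genes were. The share of regulatory T cells without a Foxp3 UMI in the Foxp3- classes was not tested. Markers of red blood cells were at 0 in every class, and collagen and other fibroblast markers summed to 0.445 CPM or less. The libraries shared 86 cell barcodes, of which 74 were kept.

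Messages encoded in mitochondrial DNA were lower in the tumor library than in the normal library in every class, and the gap was wider in Foxp3+ cells than in either class of Foxp3- cells. The 13 mitochondrially encoded members summed to 16279 CPM in tumor Foxp3+ cells and to 23607 in normal Foxp3+ cells, a ratio of 0.690 (95% interval 0.679 to 0.700). The sum was 23863 against 26281 in Foxp3- Ccr7+ cells, a ratio of 0.908 (0.905 to 0.911), and 20872 against 24478 in Foxp3- Ccr7- cells, a ratio of 0.853 (0.844 to 0.861). More tumor than normal Foxp3+ cells lacked Ccr7, and within each Ccr7 state the ratios were 0.746 (0.733 to 0.759) in Foxp3+ Ccr7+ cells and 0.790 (0.758 to 0.824) in Foxp3+ Ccr7- cells. The difference between Foxp3+ cells of the libraries was thus smaller within either Ccr7 state than over both. By 1.5-fold, 6 of 13 members were lower in Foxp3+ Ccr7+ cells, where 8.47% of all genes were, and 6 of 13 in Foxp3+ Ccr7- cells, where 26.8% were.

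The 82 nuclear members did not follow in Foxp3+ cells. Their sum was 19424 CPM in tumor Foxp3+ cells and 17500 in normal ones, a ratio of 1.11 (1.09 to 1.13), which was 0.974 when UMIs of mitochondrial and ribosomal protein genes were left out of the scaling. The median gene of all 9781 measured in Foxp3+ cells had a ratio of 1.16, so that the nuclear sum lay just under the median gene. By Ccr7 state the nuclear ratio was 1.12 (1.10 to 1.14) in Foxp3+ Ccr7+ cells, beside 1.13 for the median gene. In Foxp3+ Ccr7- cells it was 1.01 (0.967 to 1.05), beside 0.954 for the median gene. The nuclear sum was 15616 against 15689 in Foxp3- Ccr7+ cells, a ratio of 0.995 (0.991 to 1.000), and 17105 against 18499 in Foxp3- Ccr7- cells, a ratio of 0.925 (0.914 to 0.935), so that it was lower in the tumor library in that class as well.

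**Figure D1:**
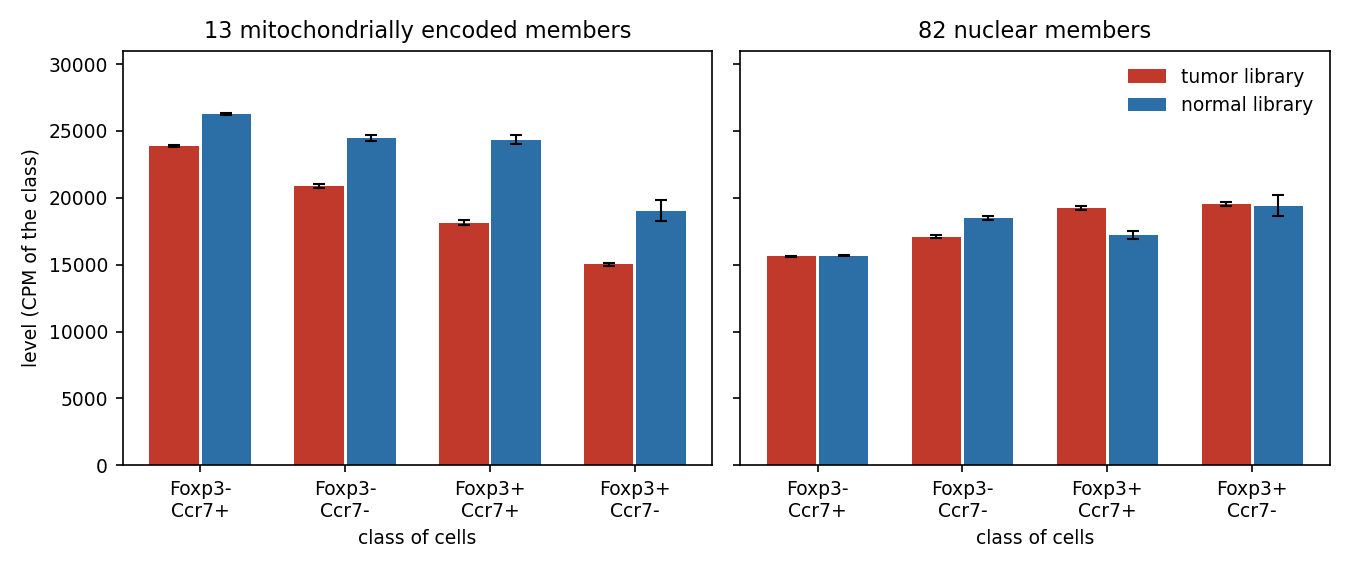
Summed level of the 13 mitochondrially encoded members (left) and the 82 nuclear members (right) in CPM, by class of cells, in the tumor library and the normal library, with exact 95% counting intervals as error bars. The mitochondrial sum was lower in the tumor library in all 4 classes, from 15030 against 19023 in Foxp3+ Ccr7- cells to 23863 against 26281 in Foxp3- Ccr7+ cells. The nuclear sum had a ratio of 1.12 in Foxp3+ Ccr7+ and 1.01 in Foxp3+ Ccr7- cells. Over all Foxp3+ cells, not drawn here, it was 1.11 with this scaling and 0.974 without mitochondrial and ribosomal protein UMIs.

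The ratio of mitochondrial to nuclear members within a class needs no scaling to the library. Tumor Foxp3+ cells had 100267 mitochondrial and 119640 nuclear member UMIs, a ratio of 0.838, and normal Foxp3+ cells had 21245 and 15749, a ratio of 1.35. The tumor value was 0.621 times the normal value (0.608 to 0.635). By Ccr7 state the 2 libraries had 0.943 and 1.42 in Foxp3+ Ccr7+ cells and 0.769 and 0.980 in Foxp3+ Ccr7- cells. Foxp3- Ccr7+ cells had 1.53 and 1.68, and Foxp3- Ccr7- cells 1.22 and 1.32, so that the tumor value was 0.912 and 0.922 times the normal value. Mitochondrial messages outnumbered nuclear ones in all normal classes except Foxp3+ Ccr7-, and in the tumor library in both Foxp3- classes but in neither Foxp3+ class. Split by complex, the tumor value in Foxp3+ cells was 0.486 times the normal value for complex I (0.465 to 0.508), 0.516 for complex III (0.481 to 0.553), 0.622 for the ATP synthase (0.595 to 0.650) and 0.708 for complex IV (0.682 to 0.736). Within Foxp3+ Ccr7+ cells these values were 0.539, 0.576, 0.681 and 0.740 in the same order. Within Foxp3+ Ccr7- cells they were 0.640, 0.687, 0.781 and 0.896. All of them lay nearer to 1 than the values over both Ccr7 states.

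The same direction was seen in single cells. The median Foxp3+ Ccr7- cell gave 1.44% of its UMIs to mitochondrially encoded genes in the tumor library, against 1.94% in the normal library, and the median Foxp3+ Ccr7+ cell 1.82% and 2.41%. In Foxp3- cells the medians were 2.37% and 2.61% with Ccr7, and 2.10% and 2.48% without it. The interquartile ranges of the cells overlapped between the libraries in every class. A majority of mitochondrial over nuclear member UMIs was found in 33.4% of tumor Foxp3+ cells (exact binomial interval 30.7 to 36.2) and 82.5% of normal ones (76.6 to 87.4). By Ccr7 state the shares were 48.9% and 88.6% in Foxp3+ Ccr7+ cells, and 25.1% and 48.4% in Foxp3+ Ccr7- cells. In Foxp3- Ccr7+ cells the shares were 90.3% and 95.4%, and in Foxp3- Ccr7- cells 67.8% and 77.1%. Cells with 10% or more mitochondrial UMIs had been left out, and this filter acts on the value measured. With those cells put back, the ratio of the mitochondrial sums was 0.692 in Foxp3+, 0.909 in Foxp3- Ccr7+ and 0.866 in Foxp3- Ccr7- cells.

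**Figure D2:**
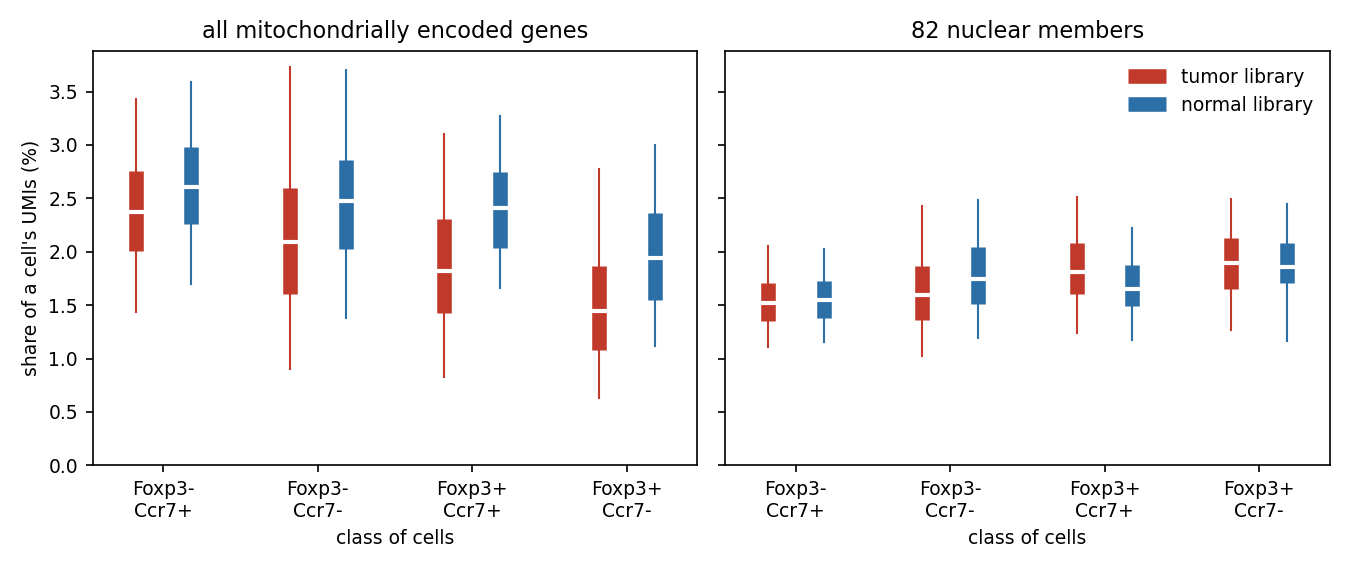
Share of each cell's UMIs, in percent, from mitochondrially encoded genes (left) and from the 82 nuclear members (right), by class and library; thin lines span the 5th to the 95th percentile of cells, thick bars the interquartile range, and white marks the median. The median mitochondrial share ran from 1.44% in tumor Foxp3+ Ccr7- cells to 2.61% in normal Foxp3- Ccr7+ cells.

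All 13 mitochondrially encoded members had ratios below 1 in Foxp3+ cells, by unequal amounts, where 35.7% of all measured genes had one. Of the 13, 9 were lower by 1.5-fold or more, where 10.2% of all 9781 measured genes were, and 6.99% of those with 100 or more UMIs. These 9 were all 7 subunits of complex I, mt-Cytb and mt-Atp8. The subunit furthest below was mt-Nd2, part of the proton-pumping arm of complex I, with 446 CPM in the tumor and 953 in the normal library, a ratio of 0.468 (0.433 to 0.506). Its neighbour mt-Nd1, the subunit next to the quinone site, had 700 and 1217, a ratio of 0.576. For mt-Nd4l, another membrane subunit, the levels were 963 and 1790, a ratio of 0.538. Ratios of the other complex I subunits were 0.562 for mt-Nd3, 0.624 for mt-Nd4, 0.597 for mt-Nd5 and 0.513 for mt-Nd6. The last of these is encoded on the other strand from the rest, and its 274 and 78 UMIs gave an interval of 0.398 to 0.669. Thus the complex I subunits lay within a band from 0.468 to 0.624. The band was 0.531 to 0.684 within Foxp3+ Ccr7+ cells and 0.525 to 0.798 within Foxp3+ Ccr7- cells.

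Cytochrome b, encoded by mt-Cytb and the only mitochondrial product in complex III, had 1423 and 2405 CPM, a ratio of 0.592 (0.564 to 0.620). The complex IV genes were closest to the normal level. The catalytic subunit gene mt-Co1 had 4255 and 4780 CPM, a ratio of 0.890 (0.862 to 0.919), and its interval lay above those of the other 12. The copper-site subunit gene mt-Co2 had 2295 and 3210, a ratio of 0.715 (0.687 to 0.744), and mt-Co3 2124 and 2986, a ratio of 0.712. Between these groups lay mt-Atp6, which codes for the proton channel of the ATP synthase, with 2887 and 4198 and a ratio of 0.688. Its upstream partner mt-Atp8 had 279 and 541 and a ratio of 0.515 (0.466 to 0.571). Both are read from 1 message and overlap by 43 bases on the mitochondrial chromosome. Likewise mt-Atp6 and mt-Co3 overlap by 1 and mt-Nd4l and mt-Nd4 by 7, so counts at these borders may be split between the genes. The overlap of mt-Nd5 and mt-Nd6 by 14 is between genes on opposite strands. The nuclear genome holds copies of mitochondrial sequence, and how reads matching both were counted is not given in the sources used here.

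In the Foxp3- classes the same genes lay closer to the normal level. In Foxp3- Ccr7+ cells 12 of 13 had ratios below 1, against 45.2% of all genes, and 0 were lower by 1.5-fold, against 3.50%. The exception was mt-Co1 with 4809 against 4748 CPM, a ratio of 1.01 that became a log2 ratio of -0.01 when scaled by the median of ratios. The lowest ratios there were 0.703 for mt-Atp8, 0.760 for mt-Nd3 and 0.779 for mt-Nd2, while mt-Atp6 and mt-Co3 stood at 0.945 and 0.938. In Foxp3- Ccr7- cells 13 of 13 lay below 1, against 51.8% of all genes, and 1 was lower by 1.5-fold, against 7.22%. That gene was mt-Atp8 with 377 against 567 CPM, a ratio of 0.664 (0.619 to 0.714), followed by mt-Nd3 at 0.685 and mt-Nd2 at 0.704, and mt-Co1 was again closest to the normal level at 0.977.

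**Figure D3:**
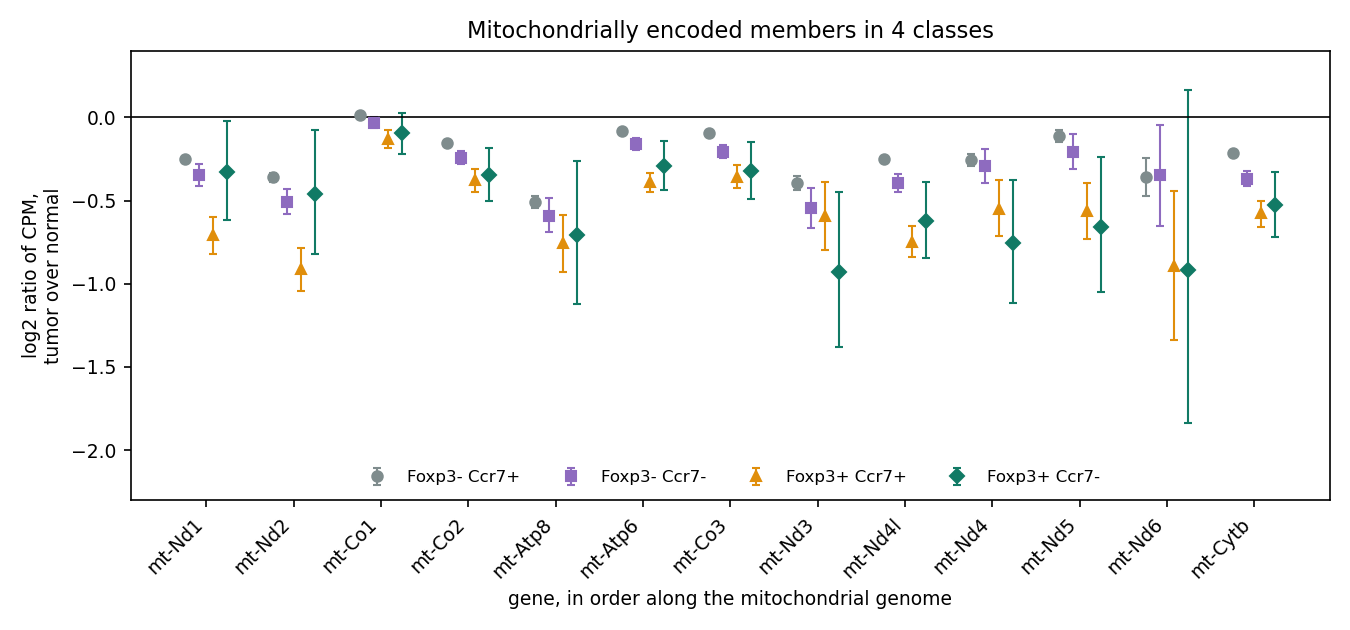
Log2 ratio of CPM, tumor over normal, for each of the 13 mitochondrially encoded members in their order along the mitochondrial genome, in 4 classes of cells, with exact 95% counting intervals. Values below 0 are lower in the tumor library; mt-Co1 lies nearest to 0 in every class, at 1.01 as a ratio in Foxp3- Ccr7+ cells (log2 -0.01 when scaled by the median of ratios), and intervals are widest in Foxp3+ Ccr7- cells, with 31 cells in the normal library.

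The make-up of the mitochondrial messages therefore differed between the libraries. In Foxp3+ cells mt-Co1 was 26.1% of the 13 genes' UMIs in the tumor library (25.9 to 26.4) and 20.2% in the normal library (19.7 to 20.8). Its share was 20.2% and 18.1% in Foxp3- Ccr7+ cells and 22.0% and 19.2% in Foxp3- Ccr7- cells. The shares of mt-Co2, 14.1% and 13.6% in Foxp3+ cells, and of mt-Atp6, 17.7% and 17.8%, were nearly alike. Smaller shares in the tumor library were those of mt-Nd4l, 5.92% against 7.58%, mt-Nd2, 2.74% against 4.04%, and mt-Cytb, 8.74% against 10.2%. Without mt-Co1 the sum of the other 12 had a ratio of 0.639 (0.628 to 0.649) in Foxp3+ cells.

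Among the nuclear members, 80 of 82 were measured in Foxp3+ cells with 20 or more UMIs. The other 2, Cox6b2 and Cox7a1, are complex IV isoforms of testis and of muscle and had 9 and 6 UMIs in these cells. Ratios above 1 were found for 58 and below 1 for 22 of these 80. By 1.5-fold, 5 were higher, where 28.5% of all measured genes were, and 0 were lower, where 10.2% were. The median log2 ratio of the nuclear members was 0.16, beside 0.21 for all genes, and the complexes were close to each other. Summed ratios were 1.13 for nuclear complex I (1.10 to 1.17), 1.15 for complex III (1.09 to 1.21), 1.12 for complex IV (1.08 to 1.15) and 1.07 for the ATP synthase (1.04 to 1.11), all of them at or under the 1.16 of the median gene. Within complex I, the 7 nuclear core subunits, which hold the flavin and iron-sulfur clusters, had a summed ratio of 1.11 and the 29 accessory subunits 1.13. The F1 catalytic head of the ATP synthase had 1.03.

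Of the 5 nuclear members higher by 1.5-fold, 4 were assembly factors of complex I with few UMIs. Ndufaf3, which helps to join early assembly intermediates, had 36.9 against 15.6 CPM, a ratio of 2.37 (1.38 to 4.40) that rested on 14 UMIs in the normal library. Ndufaf7, a methyltransferase acting on a complex I core subunit, had 16.9 and 7.78, a ratio of 2.17 (1.02 to 5.53) on 7 normal UMIs. Ndufaf2 and Ndufaf5 each had 5 UMIs in the normal library and ratios of 2.22 and 2.83. The fifth was the accessory subunit gene Ndufb9, with 193 against 127 CPM, a ratio of 1.52 on 1186 and 114 UMIs. Just under it came 2 more accessory subunits of complex I: Ndufa8 with 128 against 85.6, a ratio just short of the fold (interval 1.18 to 1.92), and Ndufa11 with 174 against 118, a ratio of 1.48 (1.21 to 1.82).

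The lowest nuclear value in Foxp3+ cells was that of Cox7a2l, counted here with complex IV (RefSeq gene at chr17:83501917-83514333, GRCm38.p6). It had 338 CPM in tumor and 482 in normal Foxp3+ cells, a ratio of 0.700 (0.631 to 0.778). By Ccr7 state the levels were 376 against 493, a ratio of 0.761 (0.675 to 0.860), and 312 against 412, a ratio of 0.758 (0.573 to 1.02). Foxp3- cells had 481 against 461 with Ccr7 and 404 against 378 without it, ratios of 1.04 (1.02 to 1.07) and 1.07 (0.988 to 1.16). The gene was thus lower in the tumor library in Foxp3+ cells, with an interval that reached 1 in the Ccr7- part, and not in Foxp3- cells.

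Among nuclear members with 100 or more UMIs in the higher library, the next lowest was Atp5g1 (chr11:96072793-96075694), 1 of 3 genes that code for the same mature c subunit of the ATP synthase rotor with different import sequences. It had 160 against 201 CPM in Foxp3+ cells, a ratio of 0.795 (0.678 to 0.937), while its paralogs had 689 against 580 (Atp5g2, ratio 1.19) and 561 against 456 (Atp5g3, ratio 1.23). Atp5g1 was 11.3% of the c subunit UMIs in tumor Foxp3+ cells (10.7 to 12.0) and 16.3% in normal ones (14.1 to 18.6). Foxp3- cells had 14.8% and 15.7% with Ccr7, and 14.4% and 16.2% without it. How reads matching more than 1 of the 3 genes were counted, if there were any, is not given in the sources used here. Next in the same ranking were Cox6a1 at 0.887, Ndufa2 at 0.889 and Atp5o at 0.889, with intervals that included 1.

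Complex IV can be built with isoforms of some subunits that differ between tissues, and these cells carried those of non-muscle tissues. Cox4i1, the common isoform of the first nuclear subunit, had 746 and 739 CPM in Foxp3+ cells, while Cox4i2, known from lung and from low oxygen, was under the member minimum. The muscle isoforms Cox6a2 and Cox8b and the testis isoforms Cox7b2 and Cox8c had 0 to 2 UMIs in all cells. Cox8a had 847 against 584 in Foxp3+ cells, a ratio of 1.45 (1.32 to 1.59), and Cox6b1 460 against 343, a ratio of 1.34 (1.19 to 1.51). Within the Ccr7+ part the ratios were 1.44 for Cox8a and 1.42 for Cox6b1, and within the Ccr7- part 1.03 (0.852 to 1.27) and 0.919 (0.715 to 1.20). The common isoform Cox7a2 had a ratio of 1.18, and Cox6a1 is given above.

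Foxp3- Ccr7+ cells, the class with the most UMIs, had 81 nuclear members measured and 0 past 1.5-fold in either direction, where 7.54% of all genes were higher and 3.50% lower. Their ratios ran from 0.797 to 1.21 and 43 lay above 1. The lowest with 100 or more UMIs were the assembly factor Ndufaf1 at 0.797, Atp5k, a small membrane subunit of the ATP synthase, at 0.808 (0.764 to 0.854), Ndufaf4 at 0.853, Uqcrb, a small complex III subunit, at 0.861 and Ndufs5 at 0.866. At the other end stood Ndufb6 at 1.16, Ndufaf3 at 1.13, Atp5d and Ndufaf7 at 1.11 and Ndufv1, which holds the flavin site where NADH is oxidised, at 1.10.

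In Foxp3- Ccr7- cells 67 of 80 nuclear members measured had ratios below 1, where 51.8% of all genes did, and the median log2 ratio was -0.12 beside -0.02 for all genes. The shifts were small, and 0 members were lower by 1.5-fold. Among members with 100 or more UMIs in the higher library, the lowest were the complex I subunits Ndufs5 at 0.742 (0.625 to 0.883), Ndufa10 at 0.745 and Ndufa3 at 0.765, then Ndufa4, counted with complex IV, at 0.773 and Uqcrb at 0.779 (0.697 to 0.871). By 1.5-fold 2 were higher, where 10.2% of all genes were: Ndufaf3 with 23.1 against 12.6 CPM, a ratio of 1.84 (1.22 to 2.84), and Ndufaf6 with 40 and 9 UMIs. The next highest with 100 or more UMIs in the higher library were Ndufs3 at 1.20, Ndufa9 at 1.09, Atp5g2 at 1.08 and Ndufa6 at 1.07. Ndufaf3 was the 1 nuclear member above 1.5-fold in both Foxp3+ and Foxp3- Ccr7- cells.

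**Figure D4:**
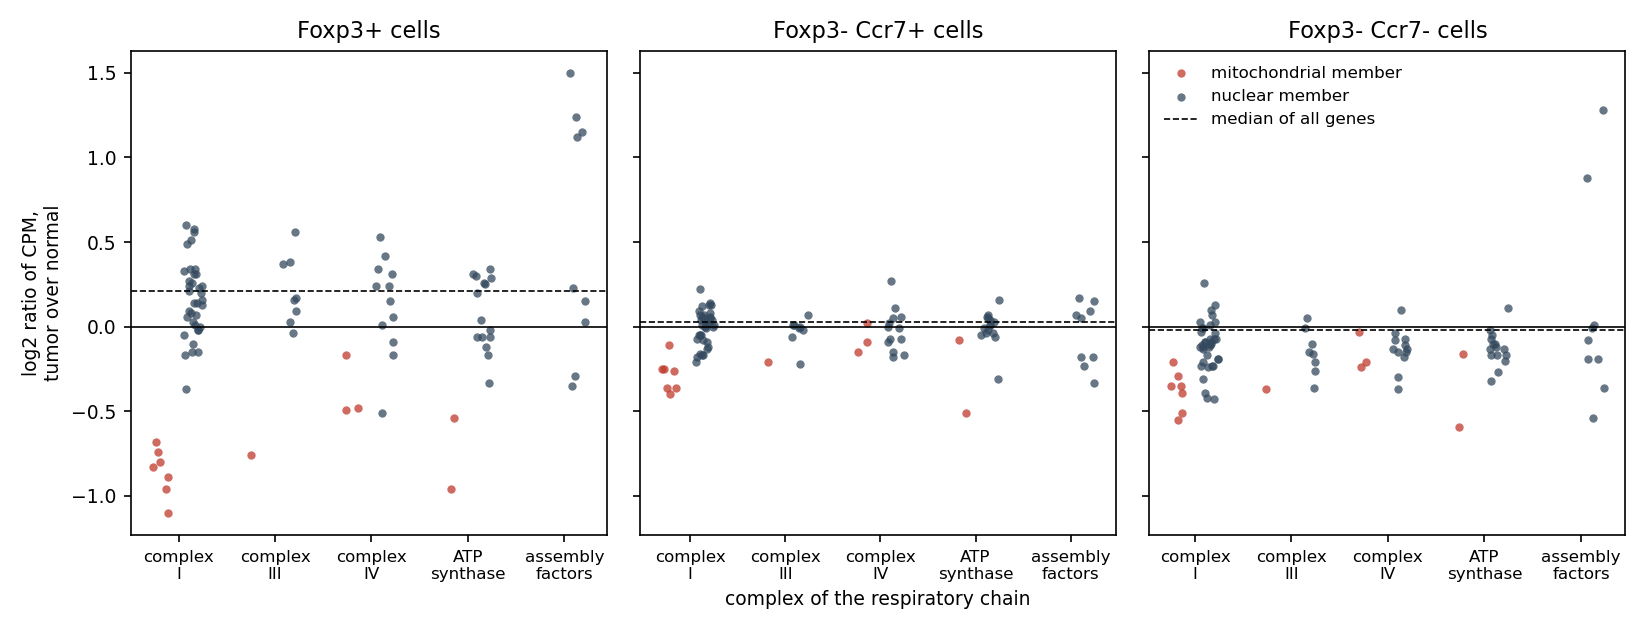
Log2 ratio of CPM, tumor over normal, of each measured member by complex in Foxp3+, Foxp3- Ccr7+ and Foxp3- Ccr7- cells, for mitochondrially encoded and nuclear members; the dashed line is the median of all measured genes (0.21, 0.03 and -0.02) and points are spread sideways at random. In Foxp3+ cells all 13 mitochondrial members lie below 0, with the complex I subunits between ratios of 0.468 and 0.624, while the nuclear members lie around a median log2 ratio of 0.16; the assembly factors furthest above rest on few UMIs.

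Nuclear respiratory genes are classically regulated through promoter sites for nuclear respiratory factor 1 (NRF1), for the ETS factor GABP and for YY1. Upstream sequence is shown for Cox7a2l and Atp5g1, the nuclear members with the lowest ratios in Foxp3+ cells among those with 100 or more UMIs in the higher library, for Atp5g2 as the paralog of Atp5g1, and for Ndufa8 and Ndufa11, subunits with high ratios there. Each run is the 150 bases before a start annotated for the gene, 5′ to 3′ on the gene's strand, from RefSeq (GRCm38.p6), with capitals on motif matches. For Atp5g1 that start lies inside the gene span given above, so that part of its run lies within the gene.
Cox7a2l: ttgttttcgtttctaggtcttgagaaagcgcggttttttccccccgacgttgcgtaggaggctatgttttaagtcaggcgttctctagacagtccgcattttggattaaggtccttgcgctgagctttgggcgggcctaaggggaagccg
Atp5g1: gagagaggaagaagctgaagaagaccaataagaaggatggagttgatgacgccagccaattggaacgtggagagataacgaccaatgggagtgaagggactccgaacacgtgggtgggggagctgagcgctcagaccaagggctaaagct
Atp5g2: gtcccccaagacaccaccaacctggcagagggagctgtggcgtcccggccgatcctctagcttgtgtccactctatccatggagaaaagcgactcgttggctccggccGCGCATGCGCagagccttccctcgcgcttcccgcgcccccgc
Ndufa8: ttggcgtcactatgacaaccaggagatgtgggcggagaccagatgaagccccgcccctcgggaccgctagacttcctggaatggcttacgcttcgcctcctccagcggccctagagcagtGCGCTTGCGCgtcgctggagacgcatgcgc
Ndufa11: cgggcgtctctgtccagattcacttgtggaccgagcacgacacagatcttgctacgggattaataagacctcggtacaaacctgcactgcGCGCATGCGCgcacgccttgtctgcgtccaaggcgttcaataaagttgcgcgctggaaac
These stretches lie at chr17:83514334-83514483 (minus strand), chr11:96075632-96075781 (minus), chr15:102671048-102671197 (minus), chr2:36049339-36049488 (minus) and chr17:56717612-56717761 (plus), in the same order. The motifs searched on both strands were GCGCNNGCGC for NRF1, CCGGAAG for ETS factors and AAGATGGCG for YY1, and they do not overlap each other in these runs. An NRF1 match was present before Atp5g2, Ndufa8 and Ndufa11, and no match of the 3 motifs before Cox7a2l and Atp5g1. These runs do not stand for the other members: Cox6a1 and Atp5o, with low ratios, had 2 NRF1 matches each in their windows of 300 bases, and Ndufaf3 and Ndufaf7, with high ratios, had 0. Promoter windows of 300 bases were given for 71 of the 82 nuclear members, with 76 windows. The NRF1 letters were in 26.3% of these windows, in 13.3% of the 11596 windows of other genes measured in these cells and in 6.23% of all 32851 windows. The ETS letters were in 21.1%, 18.5% and 8.86%, and the YY1 letters in 10.5%, 3.09% and 1.40%. A match describes the letters and does not show that a factor was bound.

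Within each library the classes also differed, and here each library served as its own comparison. Foxp3- Ccr7- cells had a lower mitochondrial sum than Foxp3- Ccr7+ cells, by a ratio of 0.875 in the tumor library, against 0.931 in the normal library, and a higher nuclear sum, by 1.10 and 1.18. On the log2 scale the nuclear values were 0.13 and 0.24, beside medians of 0.12 and 0.15 over all genes. Their mitochondrial over nuclear ratio was 0.799 (0.790 to 0.807) and 0.790 (0.780 to 0.800) times that of Foxp3- Ccr7+ cells, so that this difference between Foxp3- classes was nearly the same size in both libraries. The difference between Foxp3+ and Foxp3- cells was not. With Ccr7 state matched, Foxp3+ Ccr7+ cells had a mitochondrial over nuclear ratio 0.617 times that of Foxp3- Ccr7+ cells in the tumor library (0.609 to 0.626) and 0.845 times in the normal library (0.826 to 0.864). Foxp3+ Ccr7- cells had 0.630 times that of Foxp3- Ccr7- cells in the tumor library (0.621 to 0.640) and 0.741 times in the normal library (0.699 to 0.785). The value was below 1 in both libraries and in both Ccr7 states. Mitochondrial members lower by 1.5-fold in the Ccr7+ pair were 3 of 13 in the tumor library, where 11.2% of all genes were, and 0 of 13 in the normal one, where 10.6% were. In the Ccr7- pair they were 8 of 13, where 11.7% were, and 2 of 13, where 19.5% were.

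Foxp3+ cells of the tumor library, taken over both Ccr7 states, had 10 of 13 mitochondrial members lower than Foxp3- Ccr7+ cells by 1.5-fold, where 13.1% of all genes were lower, and 0 of 13 in the normal library, where 10.6% were. For nuclear members the counts higher by 1.5-fold were 16 of 81 in the tumor library, where 31.7% of all genes were higher, and 3 of 81 in the normal library, where 20.3% were. Summed nuclear levels had ratios of 1.24 and 1.12 in these contrasts, or 0.31 and 0.16 on the log2 scale, beside medians of 0.25 and 0.12 over all genes. In the comparison of Foxp3- Ccr7- with Foxp3- Ccr7+ cells, 0 of 13 mitochondrial members were past 1.5-fold in either library, where 5.20% of all genes were lower in the tumor and 8.25% in the normal library. Both contrasts use the same Foxp3- Ccr7+ cells as reference and are not independent of each other.

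Single nuclear members differed in how they ran over the classes. In tumor Foxp3+ over Foxp3- Ccr7+ cells their ratios ran from 0.702 to 2.58, with 71 above 1 and 10 below. The complex IV subunit gene Cox6b1 had 228 and 240 CPM in Foxp3- Ccr7+ cells of the tumor and normal library, 311 and 346 in Foxp3- Ccr7- cells, 449 and 317 in Foxp3+ Ccr7+ cells, and 468 and 509 in Foxp3+ Ccr7- cells. It was thus lowest in Foxp3- Ccr7+ cells and highest in Foxp3+ Ccr7- cells of either library. Ndufb7, an accessory complex I subunit chosen after its values were seen, had 108 and 98.2, then 158 and 151, 200 and 156, and 247 and 202 in the same order. Uqcr11, a small complex III subunit also chosen after its values were seen, had 87.9 and 87.8, then 108 and 129, 143 and 131, and 151 and 226. Cox7a2l ran the other way among Foxp3- cells, with Ccr7- over Ccr7+ ratios of 0.840 (0.799 to 0.883) and 0.820 (0.766 to 0.877). Between Foxp3+ Ccr7+ and Foxp3- Ccr7+ cells its ratio was 0.781 (0.729 to 0.835) in the tumor library, against 1.07 (0.964 to 1.19) in the normal library.

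**Figure D5:**
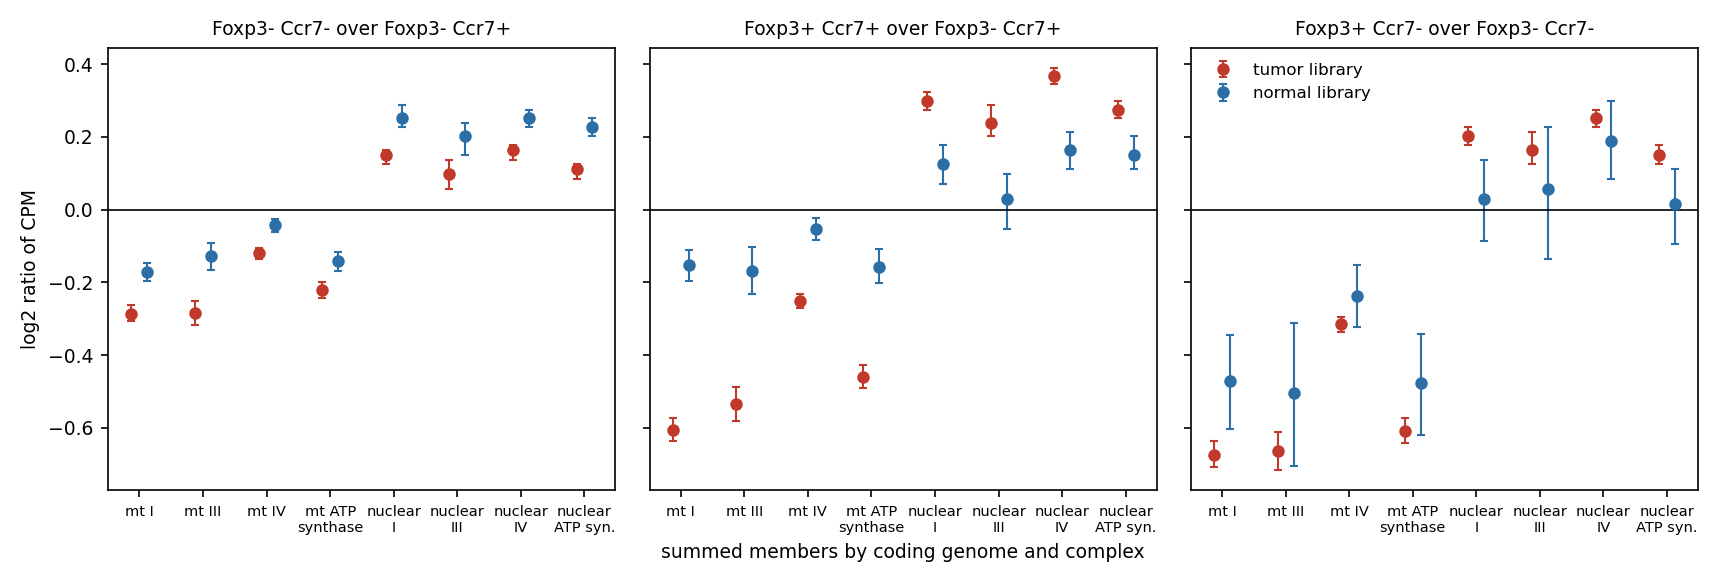
Log2 ratio of summed CPM between classes of the same library, for mitochondrially encoded (mt) and nuclear members by complex, with exact 95% counting intervals; each panel names its pair of classes. Mitochondrial sums lie below 0 in all 3 panels and both libraries, and those for complex IV lie nearest to 0, while nuclear sums lie at or above 0. Of these pairs, the text gives medians over all genes only for Foxp3- Ccr7- over Foxp3- Ccr7+ cells, and those lie above 0 too.

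Other genes of mitochondrial function are given by lists in Foxp3+ cells, beside the shares of 28.5% higher and 10.2% lower over all genes. Complex II, which is wholly nuclear encoded and feeds electrons from succinate, had 1 of 4 genes higher by 1.5-fold, Sdhd at 1.60 (1.19 to 2.20), and Sdhb stood at 1.43. Of 78 proteins of the mitochondrial ribosome, which translates the 13 mitochondrial messages, 13 were higher and 2 lower, with a median log2 ratio of 0.24. Of 25 measured genes for mitochondrial DNA transcription and RNA handling, 6 were higher and 5 lower, with a median of -0.07 and a summed ratio of 0.896. In Foxp3+ Ccr7+ cells 5 were higher and 2 lower of 22, where 8.47% of all genes were lower. In Foxp3+ Ccr7- cells 2 were higher and 11 lower of 22, where 26.8% of all genes were lower. The latter rested on 86 UMIs in the normal library. Over both Ccr7 states, 1 of the 6 higher genes was Slirp, a partner of the factor that stabilises mitochondrial messages. It had 43.7 against 28.9 CPM, a ratio of 1.51 (1.01 to 2.36). Assembly factors had 11 higher and 2 lower of 41, led by Surf1, needed for complex IV, with 79.9 against 28.9 and a ratio of 2.76 (1.86 to 4.28). That list is not separate from the members, since it also holds Ndufaf3 and Ndufaf7, which are given above. Genes of the citric acid cycle had 0 higher and 1 lower of 17, electron carriers 5 higher and 3 lower of 17, and protein import 0 higher and 1 lower of 24. Mitochondrial chaperones and proteases had 2 higher of 12, and mitochondrial antioxidants 2 higher of 8, namely Gpx4, which reduces lipid peroxides, at 1.67 (1.49 to 1.87) and Glrx2 with 50.2 against 25.6 CPM. Among regulators of mitochondrial biogenesis 2 of 14 were higher, with Gabpa at 1.87 (1.06 to 3.58) and Nrf1 at 1.33 (0.929 to 1.97), and Ppargc1a and Ppara were at 0 in both libraries. In Foxp3- Ccr7+ cells these lists together had at most 1 gene higher and 2 lower in any list.

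Other measures moved with the mitochondrial sum in Foxp3+ cells. Ribosomal protein genes summed to 200307 CPM in tumor and 289262 in normal Foxp3+ cells, a ratio of 0.692, which was near that of the mitochondrial sum, and 0.764 in Foxp3+ Ccr7+ and 0.941 in Foxp3+ Ccr7- cells. In Foxp3- Ccr7+ and Ccr7- cells the ratios were 0.977 and 1.04, while the mitochondrial ratios were 0.908 and 0.853. Malat1, a nuclear RNA, had ratios of 1.02, 0.951 and 0.978 in Foxp3+, Foxp3- Ccr7+ and Foxp3- Ccr7- cells. The 12 naive and homing genes had 10 lower by 1.5-fold in tumor Foxp3+ cells, where 10.2% of all genes were, with a summed ratio of 0.384. The cycling list had 10 of 14 higher, where 28.5% of all genes were. By Ccr7 state, 10 of 12 cycling genes were higher in Foxp3+ Ccr7+ cells. In Foxp3+ Ccr7- cells 2 of 12 were higher and 5 lower, where 26.8% of all genes were lower. Shares higher over all genes are not given by Ccr7 state. Without cycling cells the mitochondrial ratio in Foxp3+ cells was 0.692. Immediate early genes, which also respond to tissue digestion, had summed ratios of 1.27, 1.29 and 1.34 in these classes. Epithelial markers summed to 38.6 CPM in tumor and 4.44 in normal Foxp3+ cells, with 6 of 11 at 0 in both, and 8.04 and 7.20 in Foxp3- Ccr7+ cells. Most of the tumor Foxp3+ sum was the single gene Epcam, with 32.0 CPM against 2.22 in the normal library. Myeloid markers summed to 5.68 and 4.44 CPM in Foxp3+ cells, with 5 of 11 at 0, and B cell markers to 656 and 317, mostly Cd74 and Ighm. The part of these measures in the mitochondrial difference was not tested, apart from the value without cycling cells. Because values are shares of a class's UMIs, fewer mitochondrial messages and more of other messages in a cell cannot be told apart.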

How the data were processed

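Single CD4 T cells were profiled in 2 gene expression libraries with their T cell receptor libraries, aiming at 10000 cells each. The authors deposited raw UMI counts by gene and barcode, made with Cell Ranger 3.1.0 per the file headers and on mm10 per the submitters' processing notes, and tables of receptor contigs, with UMI counts per contig that were not used here. The annotation release and how reads matching several genes were treated are not given in the sources used here.

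Barcodes were kept with 500 or more genes, under 10% mitochondrial UMIs, at most 2 productive alpha and 1 productive beta chain in the receptor tables, the latter as a filter on doublets; no doublet caller was run. These filters left out 120 tumor and 61 normal barcodes for genes or mitochondrial share, and 533 and 602 for chains. UMIs were summed per class and library and scaled to 1000000 (CPM). Ratios of sums carry exact 95% intervals conditional on the total, levels exact Poisson and shares exact binomial intervals. Comparisons of the mitochondrial over nuclear ratio carry approximate 95% intervals, from a normal approximation to the log ratio of the summed counts. With 1 library a group there was no test, and "higher" or "lower" by a fold means a ratio of at least 1.5 or at most its inverse among genes with 20 or more UMIs over both libraries. A fold against a level of 0 would use a floor of 3 counts. The computation was checked on simulated counts.

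Named genes were the 13 mitochondrial members, the 5 nuclear members with the highest and the 5 with the lowest ratio per class among those with 100 or more UMIs in the higher library, the Atp5g genes, complex IV isoforms and up to 3 genes a list. Complex II, electron carriers, complex assembly, mitochondrial DNA transcription, citric acid cycle, import, chaperones, antioxidants, biogenesis regulators and the mitochondrial ribosome were other lists. The members and all lists were chosen with earlier results of these data known. All 95 members matched a RefSeq entry by symbol or synonym, and coordinates are RefSeq's on GRCm38.p6, the assembly of mm10. Alternatives were other scalings, filters, folds and definitions of classes, thinning of each cell, and, chosen after seeing the data, scaling without mitochondrial and ribosomal protein UMIs, cells of 3000 to 5000 UMIs, leaving out shared barcodes, and Foxp3+ against Foxp3- cells at equal Ccr7 state. Python 3.11.15, numpy 2.4.6, pandas 2.3.3, scipy 1.17.1 and matplotlib 3.10.9 were used.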

Additional observations from a re-analysis of the deposited data

Results flagged for a closer look

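Uqcrb, a small subunit of complex III, lay on opposite sides of 1 in 2 classes of the same libraries, with intervals that excluded 1. Its ratio of tumor over normal was 1.47 in Foxp3+ cells, with 237 against 161 CPM, and 0.779 in Foxp3- Ccr7- cells, with 172 against 221. The difference between the classes was not tested.

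Barcodes with 10% or more mitochondrial UMIs, which the comparisons leave out, were 75 in the tumor library, or 0.963% of its barcodes (exact binomial interval 0.758 to 1.21), and 27 in the normal library, or 0.349% (0.230 to 0.507). Of these, 45 and 9 were Foxp3- Ccr7- barcodes.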

How the results depend on the processing

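Values are log2 ratios of tumor over normal unless counts of members are named. Shares over all genes were not computed for the counts of members in this section. As reported, the mitochondrial sums were -0.54 in Foxp3+, -0.14 in Foxp3- Ccr7+ and -0.23 in Foxp3- Ccr7- cells. Over 12 alternatives all 3 stayed below 0, from -0.75 to -0.49, from -0.17 to -0.12 and from -0.25 to -0.17. The mitochondrial over nuclear ratio stayed below 0 in all of them as well, from -0.71 to -0.62, -0.14 to -0.11 and -0.18 to -0.04. Alternatives that only changed the scaling could not alter this ratio. Requiring 2 or more Foxp3 UMIs left the cells of both Foxp3- classes unchanged, so it could not alter their values either. The nuclear sum in Foxp3+ cells, 0.15 as reported, changed sign under 2 alternatives. Without the barcodes found in both libraries, an alternative chosen after seeing the data, the mitochondrial sums were -0.54, -0.14 and -0.23. The cause was not tested for values that moved.

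Scaling by the median of ratios, which sets the median gene to 0, gave in Foxp3+ cells -0.75 for the mitochondrial sum, -0.06 for the nuclear sum and 2 nuclear members lower by the fold. In Foxp3- Ccr7+ cells it gave -0.17, -0.03 and -0.01 for mt-Co1, and in Foxp3- Ccr7- cells -0.21 for the mitochondrial sum with 0 mitochondrial members lower. Scaling without mitochondrial and ribosomal protein UMIs, chosen after seeing the data, gave -0.73 and -0.04 with 1 nuclear member lower in Foxp3+ cells, -0.16 and -0.03 in Foxp3- Ccr7+ cells and 0 mitochondrial members lower in Foxp3- Ccr7- cells.

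Thinning to 2417 UMIs left out 393 tumor and 708 normal cells, and the classes were set again from the thinned counts. Foxp3+ cells then numbered 894 and 151, and Foxp3- Ccr7- cells 1592 and 856, so that some cells changed class. Thinning gave a mitochondrial sum of -0.56 and 8 nuclear members higher in Foxp3+ cells. In Foxp3- Ccr7+ cells it gave a nuclear sum of -0.02, a mitochondrial over nuclear ratio of -0.12 and 1 nuclear member higher, and in Foxp3- Ccr7- cells -0.25, -0.08 and -0.18 with 0 mitochondrial members lower, 0 nuclear members higher and 1 lower. Between classes, the mitochondrial over nuclear ratio of Foxp3+ over Foxp3- Ccr7+ cells was -0.89 in the tumor library, and that of Foxp3- Ccr7- over Ccr7+ cells was -0.29 and -0.23 in the tumor and normal library. The mean over cells gave -0.49 and a mitochondrial over nuclear ratio of -0.62 with 8 nuclear members higher and 1 lower in Foxp3+ cells. It gave -0.12, -0.02 and -0.11 for the mitochondrial sum, nuclear sum and their ratio in Foxp3- Ccr7+ cells, -0.17, -0.14 and -0.04 in Foxp3- Ccr7- cells, and between classes -0.78 and -0.19 in the tumor and -0.27 and -0.26 in the normal library. Cells with 3000 to 5000 UMIs, chosen after seeing the data, gave 1 nuclear member lower in Foxp3+ cells, a nuclear sum of -0.02 and a ratio of -0.11 in Foxp3- Ccr7+ cells, and -0.15 and -0.08 with 0 mitochondrial and 1 nuclear member lower in Foxp3- Ccr7- cells. Between classes they gave -0.81 and -0.24 in the tumor and -0.25 and -0.27 in the normal library.

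Requiring 2 or more Foxp3 UMIs gave a nuclear sum of 0.11 in Foxp3+ cells, and -0.93 and -0.41 for the mitochondrial over nuclear ratio between Foxp3+ and Foxp3- Ccr7+ cells in the tumor and normal library. A mitochondrial share under 5% gave mitochondrial sums of -0.14 in Foxp3- Ccr7+ and -0.25 in Foxp3- Ccr7- cells, where the mitochondrial over nuclear ratio was -0.15, and -0.36 between the Foxp3- classes of the tumor library. No filter on that share gave -0.21, -0.09 and -0.30 for the same 3 values of Foxp3- Ccr7- cells, with 0 mitochondrial members lower. Without the receptor filter, and likewise without cycling cells, Foxp3+ over Foxp3- Ccr7+ cells gave -0.83 in the tumor library. Without cycling cells the value was -0.28 in the normal library, and the Foxp3- classes differed by -0.29 in either library.

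A fold of 2 left 1 mitochondrial member lower in Foxp3+ cells, and in Foxp3- Ccr7- cells 0 mitochondrial lower and 1 nuclear higher. A fold midway between 1 and 1.5 called 19 nuclear members higher and 4 lower in Foxp3+ cells, 4 mitochondrial and 1 nuclear lower in Foxp3- Ccr7+ cells, and 7 mitochondrial and 7 nuclear lower in Foxp3- Ccr7- cells. Without the share of all genes called at these folds, the counts show only how the calls depend on the fold. With 100 or more UMIs to count as measured, 1 nuclear member was higher in Foxp3- Ccr7- cells. With 1 library a group no library could be left out. No paired analysis was possible because each group had 1 library and no test. The 31 normal Foxp3+ Ccr7- cells limit every value of that class.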
